A study of Mus musculus with 15 samples.

Results

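Aorta explants from mice without an intact copy of Notch3 (Notch3 -/-) were compared with explants from mice that kept 1 copy (Notch3 +/-), on 3 Affymetrix mouse 430 2.0 arrays per genotype. These 6 arrays, chosen by their titles, are part of a series of 15; the other 9 carried RNA of sorted brain smooth muscle cells and pericytes (4 Notch3 +/- and 5 Notch3 -/-). All mice were C57BL6J males of 10 to 12 weeks, and by its title the study linked Notch signalling to ischemic stroke. The arrays are called here by the numbers in their titles, 5556, 5561 and 6166 for Notch3 +/- and 5558, 5559 and 6167 for Notch3 -/-. There was no wild-type array, so each difference is between 0 copies and 1 copy, and the allele is constitutive as far as the labels say. No label ties the aorta arrays to separate mice, so p-values measure only the spread between these samples, and their number limits the precision. The titles fall into a 55xx and a 61xx number series with no stated meaning, and both genotypes are in both.

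Notch3 is a transmembrane receptor of arterial smooth muscle cells and pericytes. When a ligand such as Jag1 on a neighbouring cell binds it, the gamma-secretase complex releases its intracellular domain, which joins Rbpj in the nucleus and turns on genes of the Hes, Hey and Nrarp families. In arteries it is known for the maturation and contractile phenotype of smooth muscle, and inherited mutations of the human gene cause CADASIL, a small-vessel disease with strokes.

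The arrays read as aortic wall. Of the 7 smooth muscle markers, 7 were above the filter on brightness, and Acta2 (smooth muscle actin) read 11415 ± 484 (SD, n = 3) in Notch3 +/- and 11448 ± 191 in Notch3 -/-, with Myh11 at 8314 ± 244 and 8636 ± 213. Most markers of endothelium (17 of 18), fibroblasts (15 of 16) and macrophages (17 of 18) were above the filter as well. So were those of white adipocytes (16 of 20) and brown adipocytes (10 of 15). The filter is a rank on brightness and not a detection call, so these counts alone do not show which cell types the explants held. Of 13 lymphocyte markers 3 were tested. In such bulk RNA, fewer cells of a type and less RNA per cell cannot be told apart. Arrays of 1 genotype correlated at r from 0.976 to 0.982 and arrays of different genotypes at r from 0.975 to 0.982. The median log2 difference over the 22519 probe sets tested was 0.000111, with a median standard error of 0.15.

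Notch3 itself separated the genotypes. Its brighter probe set read 453, 387 and 362 on arrays 5556, 5561 and 6166 and 80.1, 97.9 and 146 on arrays 5558, 5559 and 6167. The genotypes did not overlap, and array 6167 lay nearest to the Notch3 +/- arrays (log2 -1.78, SE 0.19, a 3.43-fold difference; limma adjusted p = 0.135). The dimmer probe set was below the filter and ran from 33.9 to 41.2 and from 14.4 to 23.8. Over all probe sets tested, 0 passed 5% after Benjamini-Hochberg adjustment in limma and 980 had an unadjusted p under 0.05 (4.35%, of which 2.47% lower and 1.88% higher in Notch3 -/-), while the genotypes did not overlap for 2132 (9.47%). A difference of 1.5-fold or more was seen for 202 probe sets lower (0.897%) and 96 higher (0.426%), and of 2-fold or more for 40 lower (0.178%) and 13 higher (0.0577%). Counts of genes below use 1 probe set per named gene, the brightest. Of 11691 such genes, 510 had an unadjusted p under 0.05 (4.36%), 297 lower and 213 higher (2.54% and 1.82%), and the genotypes did not overlap for 1071 (9.16%), 549 lower and 522 higher (4.7% and 4.46%). Since no gene passed the adjusted threshold with all 6 arrays, the values that follow are measured differences, not calls.

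The genes with the smallest p among those lower in Notch3 -/- aorta were Mt1 and Mt2 (metallothioneins, which bind zinc and copper), Timp4 (an inhibitor of metalloproteinases), Tcim, Ddit4 (an inhibitor of mTOR signalling), Sgk1 (a kinase that controls ion transport), Cdkn1a (the cell cycle inhibitor p21), Slc10a6 (a transporter of sulfated steroids), Angptl4 (an inhibitor of lipoprotein lipase), Arrdc3 (an arrestin-like adaptor), Glul (glutamine synthetase), Errfi1 (an inhibitor of the epidermal growth factor receptor), Zbtb16 (a transcription factor), Nfkbia (the inhibitor of NF-kappa-B) and Tob2. By limma their adjusted p ran from 0.135 for Mt1 to 0.544 for Tob2, and all 15 were lower on each Notch3 -/- array than on each Notch3 +/- array, against 4.7% of all named genes. They were chosen by p, so this separation is a description. The gene list described next was written with these genes known.

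**Figure D1:**
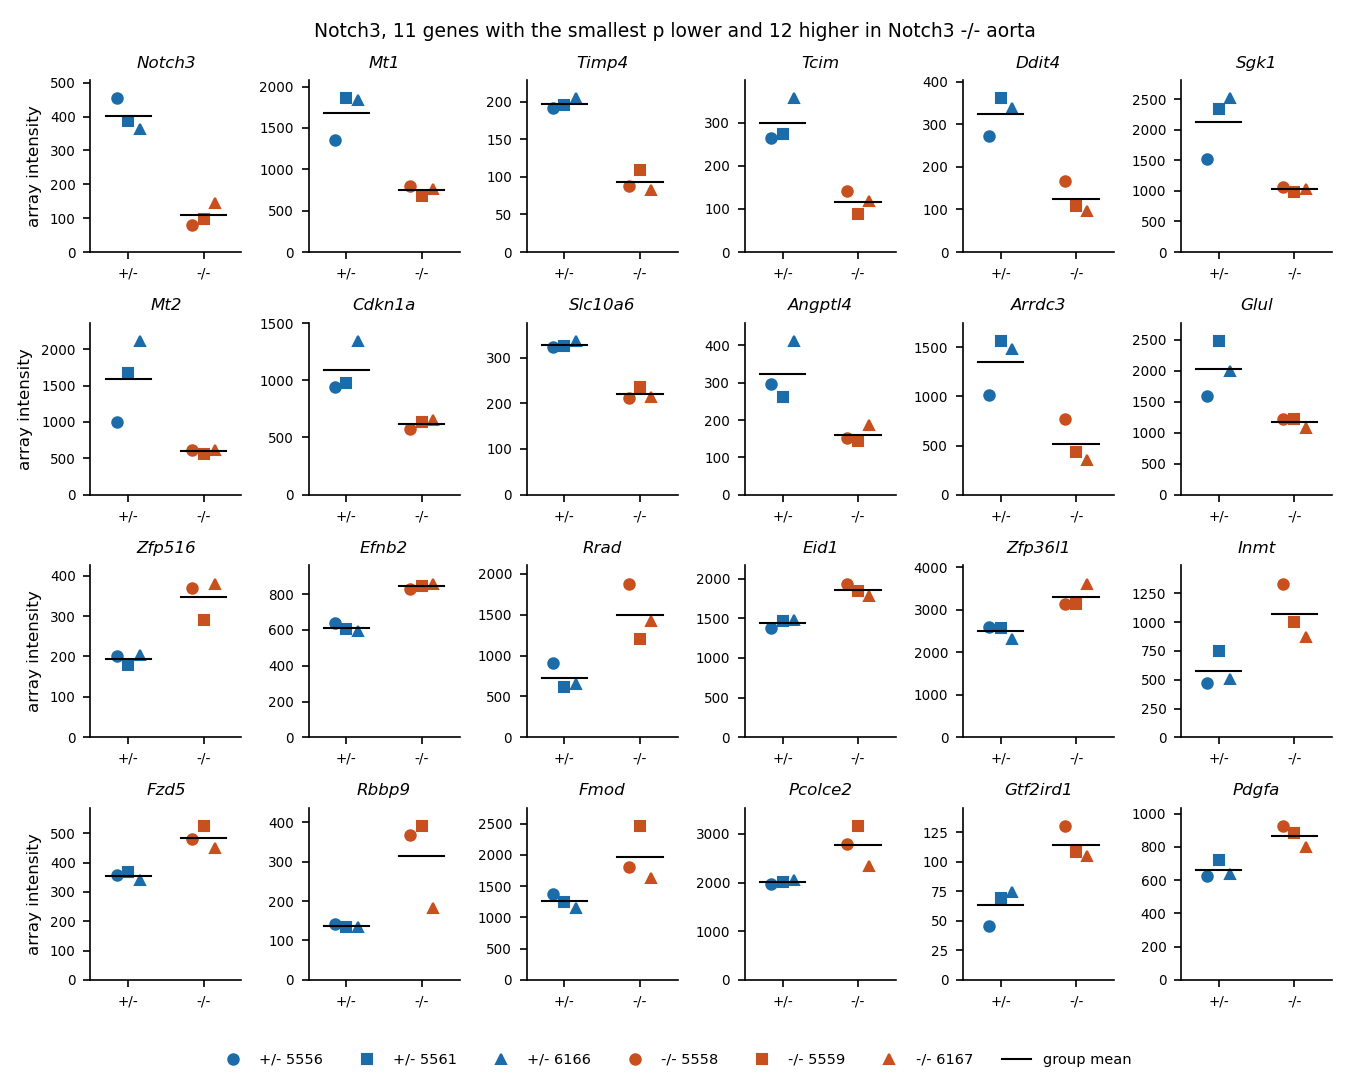
Array intensity (linear, from 0) of Notch3, of the 11 genes with the smallest p among those lower and of the 12 with the smallest p among those higher in Notch3 -/- aorta; each point is 1 array and the bar is the mean of 3. Mt1 reads from 1353 to 1857 in Notch3 +/- and from 672 to 801 in Notch3 -/-, and Efnb2 from 596 to 638 and from 831 to 859.

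Genes known to be induced by glucocorticoids were lower as a group in Notch3 -/- aorta. Corticosterone, the main glucocorticoid of mice, enters cells and binds its receptor Nr3c1, which then binds glucocorticoid response elements in DNA and switches on genes such as Fkbp5, Tsc22d3, Per1 and Sgk1. The list holds 39 genes, among them the receptor's own gene, and 36 were tested, of which 26 had an unadjusted p under 0.05 and were lower, against 2.54% of all named genes. None was higher at that level, against 1.82%, and 0 passed the adjusted 5%. The median log2 difference of the 36 was -0.74 (1.67-fold), against -0.00243 over all named genes. The list was written when the low values of some members in these arrays were already known: without the 8 members that an earlier look at these arrays had named, 18 of 28 were lower at an unadjusted p under 0.05 and the median was -0.49. The 28 were also chosen with results of these data known, so this count is a description and not an independent check.

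Of the 2 metallothioneins, Mt1 read 1353, 1857 and 1840.0 in Notch3 +/- and 801, 672 and 763 in Notch3 -/- (log2 -1.15, SE 0.13; limma adjusted p = 0.135). Mt2 read 998, 1671 and 2112 against 613, 555 and 614 (log2 -1.34, SE 0.23). At these probe sets the 3 Notch3 -/- arrays lay close together for both genes, and array 5556 was the lowest of its genotype. A dimmer Mt1 probe set was lower by more (log2 -1.90), at 315, 309 and 184 against 51.0, 108 and 33.7. There array 5556 was the highest of its genotype, and the Notch3 -/- arrays were spread. The brighter Mt1 probe set carries the suffix of probes that can match more than 1 transcript, so Mt1 and Mt2 may share signal at it. Of 14 tested genes of metallothioneins and zinc handling, Mt1 and Mt2 were lower and 1, the zinc exporter Slc30a1, was higher at an unadjusted p under 0.05 (log2 0.26), with a list median of 0.02. No member was higher at that level with quantile normalization, without the intensity trend, with array weights, with all 15 arrays in the fit or without array 5561, 6166, 5558 or 6167.

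The 250 bases before the RefSeq starts of Mt2, Mt1 and Sgk1 (GRCm38.p6, plus strand for all 3) are shown for 2 reasons. These genes were among the 15 with the smallest p, and these windows hold the letters of a response element. Timp4, Tcim and Ddit4 had a smaller p than Sgk1 and Mt2. Fam107a, Zbtb16, Errfi1 and Arrdc3 differed by more than all 3 at their brightest probe sets. Capitals mark the metal response element, searched as TGCACNC or TGCGCNC on both strands, in Mt2 (chr8:94172368-94172617) and Mt1 (chr8:94178839-94179088), and the glucocorticoid response element, searched as AGNACA, any 3 bases and TGTNCT on both strands, in Sgk1 (chr10:21993640-21993889).
Mt2: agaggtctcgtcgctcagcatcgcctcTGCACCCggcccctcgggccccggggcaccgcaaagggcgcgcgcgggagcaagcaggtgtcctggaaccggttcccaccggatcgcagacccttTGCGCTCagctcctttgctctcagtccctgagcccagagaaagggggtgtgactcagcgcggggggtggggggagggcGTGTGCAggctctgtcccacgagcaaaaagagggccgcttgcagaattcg
Mt1: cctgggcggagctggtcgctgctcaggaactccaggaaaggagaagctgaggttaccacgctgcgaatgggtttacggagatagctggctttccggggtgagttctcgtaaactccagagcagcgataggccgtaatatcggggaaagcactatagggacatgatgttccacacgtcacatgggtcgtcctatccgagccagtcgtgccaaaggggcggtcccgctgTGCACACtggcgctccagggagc
Sgk1: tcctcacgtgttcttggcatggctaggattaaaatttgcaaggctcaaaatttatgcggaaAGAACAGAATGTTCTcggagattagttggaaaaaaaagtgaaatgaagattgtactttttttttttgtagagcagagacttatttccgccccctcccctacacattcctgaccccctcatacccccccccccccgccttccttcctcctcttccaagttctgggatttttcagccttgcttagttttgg
The Mt2 window held 3 metal elements, the Mt1 window 1, and at least 1 stood in 21.4% of all 32851 windows in the table, in 29.6% of the 12145 windows of named genes tested in aorta and in 29.3% of the 41 windows of the list's tested members. The glucocorticoid element stood in 20 windows in all (0.0609%) and in 2 of the 12145, and Sgk1 was the only tested member of the list with one, in 1 of its 6 windows. Other motifs were searched too. The Rbpj site stood in 9.76% of the list's 41 windows and in 5.3% of the 12145. For the E-box of clock factors the shares were 17.1% and 8.18%, and for the TATA box 9.76% and 6.88%. Differences between these shares were not tested. A match of letters is not a site of binding, and elements outside these windows were not looked for.

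The receptor's better known targets were named outside the rule for named genes, after their values were seen. Fkbp5, a chaperone partner that limits the receptor's own activity, read 244, 366 and 429.9 in Notch3 +/- and 179, 205 and 151 in Notch3 -/- (log2 -0.88, SE 0.20). Tsc22d3, the leucine zipper protein that carries much of the anti-inflammatory effect, read 267, 253 and 452 against 174, 183 and 175 (log2 -0.77, SE 0.20). Per1, a clock gene with a hormone response element, read 229.8, 397 and 431 against 188, 155 and 137 (log2 -1.03, SE 0.22). For each of the 3 genes every Notch3 -/- array lay below every Notch3 +/- array, and unadjusted p by limma was 0.00171, 0.00373 and 0.0012.

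Among the signalling members, Sgk1 read 1527, 2334 and 2509.7 against 1064, 986 and 1035 (means 2124 ± 524 and 1028 ± 39.6, SD, n = 3; limma adjusted p = 0.413). Errfi1 read 2309.7, 4179.7 and 5189.9 against 1803, 1177 and 1183 (log2 -1.43, SE 0.28), and Ddit4 read 273, 361 and 338 against 167, 109 and 96.3 (log2 -1.30, SE 0.19). The largest difference on the list was that of Fam107a, an actin-associated protein, at 492, 1498 and 1533 against 411, 436 and 217 (log2 -1.58, SE 0.42). In Fam107a the Notch3 +/- array 5556 sat close to the Notch3 -/- arrays. Zbtb16 read 314, 454 and 850.3 against 129, 174 and 188 (log2 -1.53, SE 0.31), and of its dimmer probe sets 1 differed by -1.10 and another, close to the filter, by -0.07.

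Metabolic and transcription factor members were lower too. Pdk4, which blocks the entry of pyruvate into the citric acid cycle, differed by log2 -1.07, Klf15, a regulator of amino acid and fatty acid use, by -0.99, Angptl4 by -0.93 and Glul by -0.76. Nfkbia, through which glucocorticoids restrain NF-kappa-B, read 5493, 7505 and 6802 against 4778, 3959 and 3201 (log2 -0.73, SE 0.15), and the 5 probe sets of this gene were all lower. Klf9 differed by -0.47, Cebpb by -0.49 and Cebpd by -0.69. Each of these 8 genes had an unadjusted p under 0.05 and no overlap of genotypes. In all, 10 of the 36 tested members did not reach that level. Dusp1, a phosphatase of MAP kinases, read 2578, 2393 and 2489 against 3630.2, 1679.6 and 2891 (log2 0.07), Hsd11b1, which regenerates corticosterone, differed by 0.02, and Tgm2, the brightest member, by -0.05. The receptor itself, Nr3c1, is counted on the list but was not lower. It read 1459, 1531 and 1289.8 against 1559, 1597 and 1665 (log2 0.17, SE 0.08, unadjusted p = 0.0716 by limma), so every Notch3 -/- array lay above every Notch3 +/- array.

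**Figure D2:**
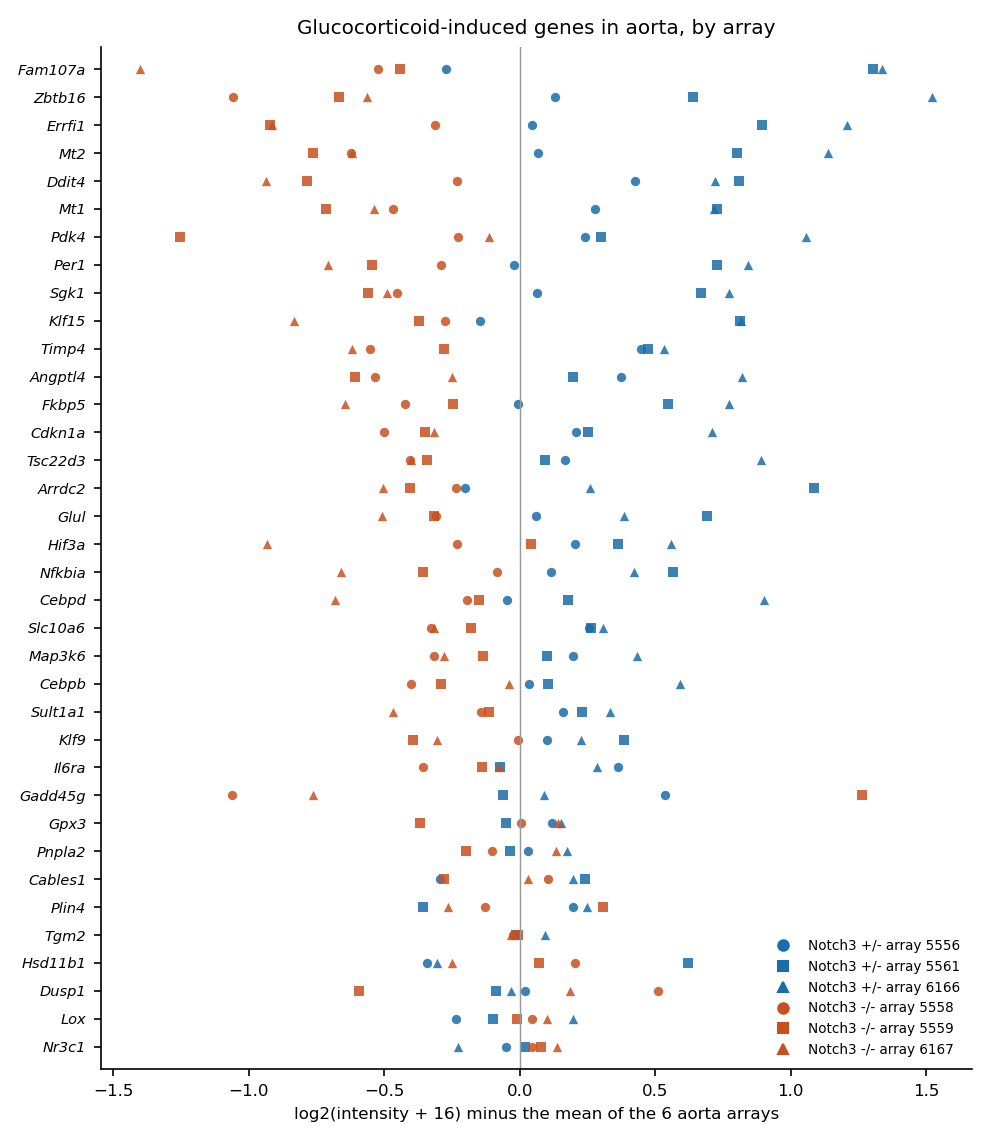
Level of each of the 36 tested members of the glucocorticoid-induced list on each aorta array, as log2(intensity + 16) minus the mean of the 6 arrays. Genes are ordered by the genotype difference, from Fam107a (-1.58) at the top to Nr3c1, the receptor's own gene (0.17), at the bottom. Blue Notch3 +/- points lie right of red Notch3 -/- points in the upper 26 rows, with array 5556 mostly the leftmost blue point.

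The level of the list differed among arrays of 1 genotype as well. Averaged over the 36 members, array 5556 stood 0.09 log2 units above the mean of the 6 arrays, 5561 stood 0.37 above and 6166 stood 0.53 above, while 5558, 5559 and 6167 stood at -0.27, -0.31 and -0.41. All Notch3 -/- arrays were thus below all Notch3 +/- arrays, but array 5556 was the lowest of its genotype for 22 of the 26 genes with an unadjusted p under 0.05, and array 6166 the highest for 19. The median difference was -0.51 between the 55xx arrays (33 of 36 members lower) and -0.96 between the single pair of 61xx arrays (33 of 36 lower). Leaving out 1 array at a time, 23 to 25 members were lower at an unadjusted p under 0.05 and 1 was higher without 5561, 6166 or 5559, with medians from -0.87 (without 5556) to -0.58 (without 6166). Without array 5556, 7 probe sets passed 5%, all lower in Notch3 -/- (0.0311% of those tested): Sgk1 and Mt2 (limma adjusted p = 0.0108 for both), Mt1 (0.0108), Errfi1 (0.0473) and 3 probe sets with no gene name in the annotation used, the largest at log2 -3.23.

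The same list was read in the sorted brain cells, whose arrays share no sample with the aorta arrays. Of its members 35 were tested there, with a median of 0.07, 5 lower and 3 higher at an unadjusted p under 0.05 (against 4.6% and 4.8% of all probe sets in brain), and 0 past 5%. Mt1 differed by 0.07 in brain, Fkbp5 by 0.33 and Sgk1 by 0.48. The difference between the tissues did not pass 5% for these genes (limma adjusted p = 0.866, 0.788 and 0.195). Of 19 clock genes tested, which were read because glucocorticoids and clock phase share targets, Per1 was lower and Clock higher (log2 0.27) at an unadjusted p under 0.05, with a list median of 0.02, 0.13 within the 55xx arrays and -0.26 within the 61xx pair.

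The counts of other stress and nutrient lists stand against 2.54% lower and 1.82% higher of all named genes. Of 23 tested genes induced by FoxO factors or fasting, 6 were lower at an unadjusted p under 0.05 and 0 higher (median -0.12): Pdk4, Angptl4, Arrdc3, Arrdc2, Klf15 and Cited2, of which 4 are also on the glucocorticoid list. Of 20 tested heat shock proteins and chaperones 3 were lower (median -0.15), but the median was 0.0031 between the 55xx arrays and -0.32 between the 61xx arrays, and without array 6166 it was 0.03 with 0 lower. Without the intensity trend, with all 15 arrays in the fit or without 5559, 0 of the 20 were lower too. Of 24 tested interferon-response genes 2 were lower, Irf7 (log2 -0.62) and Ifit1 (-0.51), with a median of -0.20 between the 55xx arrays (22 of 24 lower) and 0.09 between the 61xx arrays (6 of 24 lower). The 18 tested hypoxia genes had a median of -0.08 with 1 lower, and 55 tested genes of oxidative phosphorylation had a median of -0.04 with 0 lower and 0 higher.

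**Figure D3:**
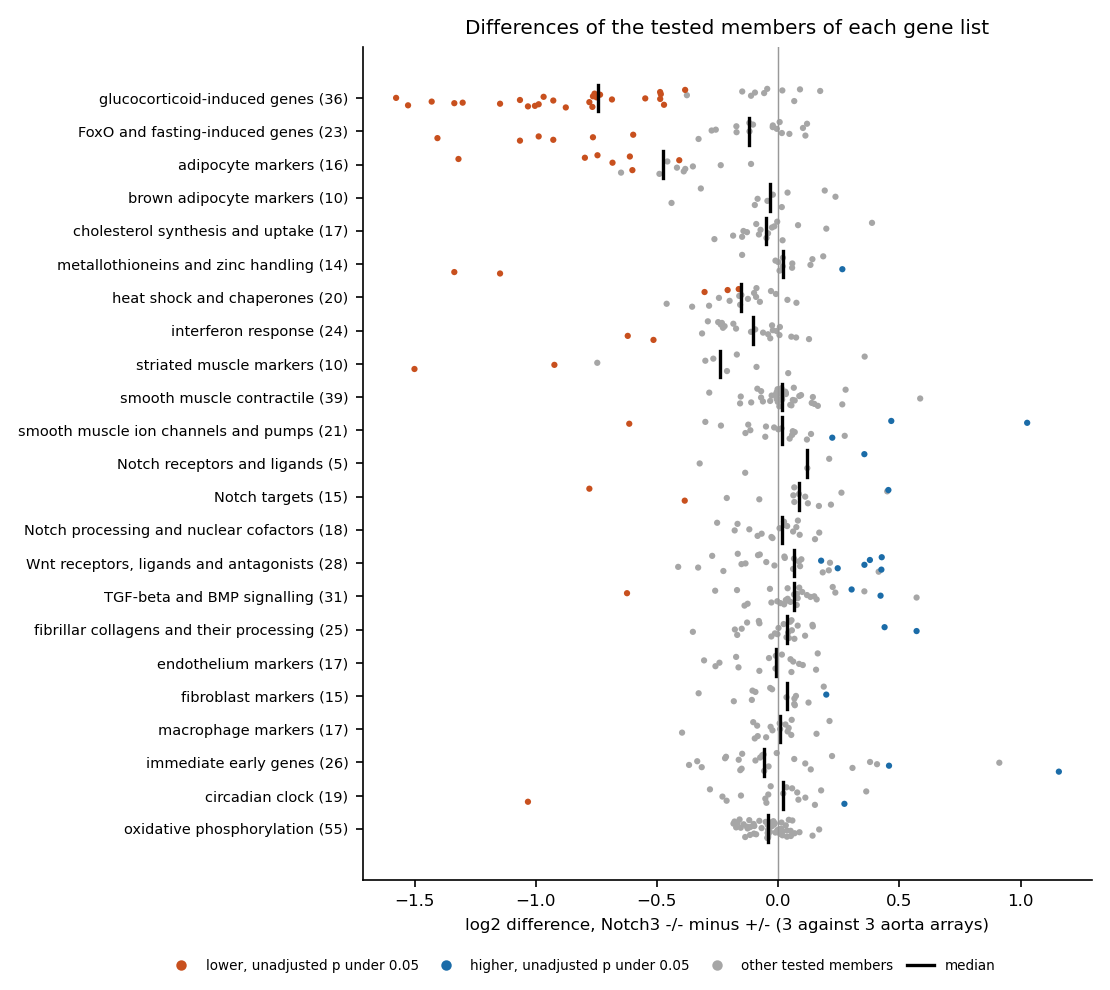
Log2 difference, Notch3 -/- minus +/-, of each tested member of 23 gene lists (number of tested members in brackets), 1 point per gene, with the list's median as a black bar; coloured points have an unadjusted p under 0.05. The medians of the glucocorticoid-induced genes (-0.74) and adipocyte markers (-0.47) lie apart from 0, and the smooth muscle contractile genes cluster around 0.02.

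Fat and lipid synthesis genes were low on 2 of the 3 Notch3 -/- arrays. Of 16 tested adipocyte markers, 7 were lower and 0 higher at an unadjusted p under 0.05, against 2.54% and 1.82% of all named genes (median -0.47): Acaca and Fasn, which make fatty acids, Scd1, which desaturates them, Gpd1, Lep (leptin), Retn (resistin) and Slc7a10. Fasn read 1019.9, 1526 and 1381 in Notch3 +/- and 303, 345 and 1230.5 in Notch3 -/- (log2 -1.32, SE 0.44). Scd1 read 5391, 8031 and 7123 against 3336, 2852 and 6141 (log2 -0.80, SE 0.26). In both genes array 6167 lay within or near the Notch3 +/- range, and arrays 5558 and 5559 far below it.

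The pattern held across the list. Both 5558 and 5559 lay below every Notch3 +/- array in 13 of the 16 markers, and 6167 was the highest Notch3 -/- array in 15. The summed intensity of the 16 was 10916 and 9929.6 on arrays 5558 and 5559 and 19092 on 6167, against 18267 to 20887 in Notch3 +/-. The median was -0.67 between the 55xx arrays and -0.17 between the 61xx arrays. Without array 6167, 13 of the 16 were lower at an unadjusted p under 0.05 (median -0.75), in a fit where 764 of 22519 probe sets were. The count was 4 without 5556, 5558 or 5559. Without 6167, 7 probe sets passed 5% (0.0311%), namely Notch3 (log2 -1.99), and, lower as well, Fasn (-1.94), Thrsp (-1.41; a regulator of lipid synthesis), Acss2 (-1.18; acetyl-CoA synthetase), Tmem45b (-1.16) and Cxcl12 (-0.95; a chemokine), and, higher, Rbbp9 (1.37), a serine hydrolase. Cxcl12 read 3022, 3106 and 2842 against 1522, 1546 and 2487, with no overlap of genotypes, while its dimmer tested probe set overlapped (239, 182 and 262 against 234, 155 and 211; log2 -0.18).

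Markers of brown fat did not follow. Ucp1, the uncoupling protein that defines brown adipocytes, read 629, 105 and 481 in Notch3 +/- and 353, 203 and 479.6 in Notch3 -/- (log2 0.02, SE 0.56), and 0 of 10 tested brown markers had an unadjusted p under 0.05. Adipoq, the defining white adipocyte hormone, read 1304, 589 and 1243 against 577, 529 and 1108 (log2 -0.49, SE 0.34). The Notch3 +/- array 5561 was the lowest of all 6 in Ucp1 and close to arrays 5558 and 5559 in Adipoq, yet the highest in Fasn. The part of adipocyte content in the values of the lipid synthesis genes was not tested.

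Genes of cholesterol synthesis, which share sterol-sensing regulators with fatty acid synthesis, split by number series. Of 17 tested, 0 had an unadjusted p under 0.05 with all arrays (median -0.05), but 16 were lower between the 55xx arrays (median -0.29) and 1 was lower between the 61xx arrays (median 0.57). Array 6167 was the highest of all 6 for 14 of the 17. Hmgcs1, the brightest, read 2503, 2368 and 2071 against 2011, 1781 and 3556, and Sqle, a rate-limiting step, read 263, 316 and 265 against 174, 174 and 402. Without 6167, 6 of the 17 were lower at an unadjusted p under 0.05 (median -0.28), in a fit where 764 of 22519 probe sets were.

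**Figure D4:**
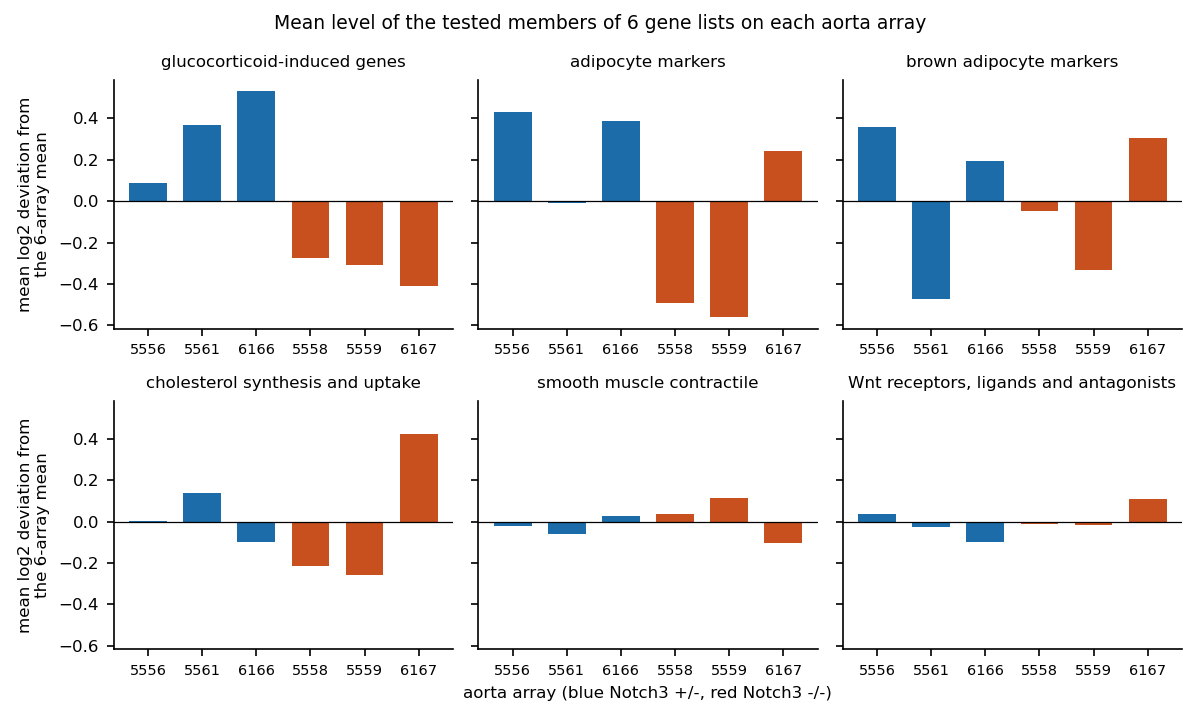
Mean deviation, in log2 units, of the tested members of 6 gene lists from their mean over the 6 aorta arrays, 1 bar per array, blue for Notch3 +/- and red for Notch3 -/-. The glucocorticoid-induced genes are above 0 on all blue and below 0 on all red arrays; adipocyte and cholesterol genes are low on 5558 and 5559 and high on 6167.

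Most genes of the Notch pathway differed little in aorta. Among receptors and ligands Notch1, Notch2, Notch4, Dll1 and Jag1 were tested. Notch2, the other receptor of smooth muscle, read 1657, 1879 and 1488 against 1910.2, 1795 and 1739 (log2 0.12, SE 0.10). Jag1, the ligand on smooth muscle and endothelium, read 779, 752 and 544 against 883, 753 and 1020.3 (log2 0.36, SE 0.16, unadjusted p = 0.0491 by limma). Its genotypes overlapped. It was the 1 of the 5 receptors and ligands with an unadjusted p under 0.05. The 15 tested target genes had a median of 0.09, with 2 lower and 1 higher at that level. Of all named genes 2.54% were lower and 1.82% higher. Of the target genes Nrarp, a feedback inhibitor, was lower (138, 160.3 and 159 against 89.2, 124 and 129.6, log2 -0.39). Cdkn1a (-0.78), which is also on the glucocorticoid list, was lower too, and Efnb2 was higher. Of the Hes and Hey families, Hey2 (0.12), Heyl (0.07), Hey1 (0.22) and Hes1 (0.17) all lay with overlapping genotypes, while those of Nrarp did not overlap. The standard error was 0.11 for Hey2 and 0.21 for Heyl. Of 18 tested genes of receptor processing and the nuclear complex, 0 had an unadjusted p under 0.05 (median 0.01).

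Genes of the contractile apparatus showed no difference beyond the spread of the arrays. Of 39 tested contractile genes 0 had an unadjusted p under 0.05 (median 0.02), 31 were higher between the 55xx arrays and 30 lower between the 61xx pair. Cnn1 (calponin) read 2591, 2286 and 4613 against 4153, 4621 and 2475, so that 6166 was the high Notch3 +/- array and 6167 the low Notch3 -/- one (log2 0.26, SE 0.28). Of 21 tested channels and pumps, Pln (phospholamban, which restrains the calcium pump of the sarcoplasmic reticulum) was lower at 148, 148 and 121 against 99.5, 77.7 and 79.5 (log2 -0.61, SE 0.14), and Rrad, Ano1 and Kcnma1 were higher at an unadjusted p under 0.05, against 2.54% and 1.82% of all named genes. The count of higher members was 1 with all 15 arrays in the fit or without 5558, and 2 without 5556, 6166, 5559 or 6167. Rrad, a small GTPase that inhibits L-type calcium channels, read 910.4, 614 and 654 against 1878, 1201 and 1419.5 (log2 1.03, SE 0.18; limma adjusted p = 0.454). Ano1, the calcium-activated chloride channel, differed by 0.47 and Kcnma1, the large-conductance potassium channel, by 0.22.

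The genes with the smallest p among those higher in Notch3 -/- aorta were Zfp516, Efnb2, Rrad, Eid1, Zfp36l1, Inmt, Fzd5, Rbbp9, Fmod, Pcolce2, Gtf2ird1, Pdgfa, Kcne4, Aqr and Mcm2, with log2 differences from 0.36 (Eid1) to 1.04 (Rbbp9). Efnb2, the ephrin ligand that marks arteries, read 638, 604 and 596 against 831, 845 and 859 (log2 0.45, SE 0.08). The groups were far apart relative to their spread, while its next brightest probe set overlapped, running from 276 to 391 and from 361 to 413. Zfp516, a zinc finger transcription factor, read 200.4, 180.0 and 204 against 369, 289 and 380.3 (log2 0.77, SE 0.13; limma adjusted p = 0.43). Rbbp9 read 142, 134 and 134 against 367, 389.7 and 183, with array 6167 again nearest to the Notch3 +/- level.

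Some of these genes act in the matrix and in growth factor signalling. Fmod (fibromodulin, a collagen-binding proteoglycan) read 1377, 1251 and 1149.5 against 1809, 2456 and 1624 (log2 0.62, SE 0.14), and Pcolce2, an enhancer of procollagen processing, read 1976, 2019.8 and 2058 against 2788, 3156 and 2342 (log2 0.44, SE 0.10). Pdgfa, a platelet-derived growth factor, differed by log2 0.39 at its brightest probe set and by 0.07 at another, so its probe sets disagreed. Against 1.82% higher and 2.54% lower of all named genes, 2 lists on matrix and growth factors had 1 or 2 members in a direction at an unadjusted p under 0.05. Of 25 tested genes of fibrillar collagens and their processing, Pcolce2 and Col12a1 (0.57) were higher and 0 lower at an unadjusted p under 0.05, with a median of 0.03. Of 31 tested genes of TGF-beta and BMP signalling, Bmp4 (log2 0.42) and Inhbb (0.30) were higher and Id1, a direct target of BMP signals, lower (355, 411 and 348 against 339, 214 and 177; log2 -0.62), with a median of 0.07.

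Of 28 tested Wnt receptors, ligands and antagonists, 6 were higher and 0 lower at an unadjusted p under 0.05, against 1.82% and 2.54% of all named genes, with a median of 0.06. Fzd5, a Wnt receptor, read 359, 368 and 342 against 479.6, 524 and 450.2 (log2 0.43, SE 0.10), although its dim probe set differed little (41.5 ± 2.66 and 43.2 ± 5.64). Axin2, a feedback target of beta-catenin, read 53.1, 63.7 and 53.2 against 78.6, 78 and 88.2 (log2 0.43, SE 0.14). The ligand Wnt5a differed by 0.36, the antagonists Sfrp4 and Sfrp2 by 0.38 and 0.18 and the receptor Fzd7 by 0.25. Beta-catenin itself (Ctnnb1), the brightest member, differed by 0.03. The count of higher members was 3 with all 15 arrays in the fit, 4 without the intensity trend and 4 without array 5556 or 6167, and without 6167 2 were lower.

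Immediate early genes, which rise within minutes of stimulation or tissue handling, varied among Notch3 -/- arrays. Fos read 899.8, 849 and 691 in Notch3 +/- and 2484, 796 and 3052 in Notch3 -/- (log2 1.16, SE 0.41). Array 5559 was at the Notch3 +/- level, and without it Fos was the 1 probe set past 5% (0.00444% of those tested; log2 1.75, limma adjusted p = 0.0412). Ier2 read 251, 225 and 188 against 291, 316 and 317 (log2 0.46, SE 0.13), and the other 24 of the 26 tested members had an unadjusted p of 0.05 or more. Among all named genes 1.82% were higher and 2.54% lower at an unadjusted p under 0.05. Of 10 tested markers of striated muscle, Actc1 (cardiac actin; 149, 154 and 308 against 80.7, 117 and 88.4) and Myh6 (32.4, 84.8 and 184 against 7.47, 35.4 and 19.6) were lower, with the highest values on array 6166. Both had an unadjusted p under 0.05, and the share of all named genes lower at that level was 2.54%. The summed intensity of the 10 markers was 1021 to 1472 in Notch3 +/- and 845 to 1046 in Notch3 -/-, with 16 of the 26 listed markers below the filter.

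Named genes that were lower in Notch3 -/- brain cells showed, as a group, no difference beyond the spread of the arrays in aorta. Brain cells had 32 probe sets past 5% (0.142%), from which 23 named genes lower in Notch3 -/- remained after Notch3 was left out. Of these 17 were bright enough to be tested in aorta, with a median of 0.01 there (lowest -0.16, highest 0.19). Their median of -1.16 in brain reflects their choice by low brain values. In aorta 0 of the 17 had an unadjusted p under 0.05, against 4.36% of all named genes, a share that 17 genes are too few to tell from 0. A probe set with no gene named, lower in brain (-1.40), was lower in aorta without overlap (log2 -0.33, unadjusted p = 0.044 by limma). Pdgfa was counted at its probe set past 5% in brain (0.07 in aorta), while its brightest in aorta was higher (0.39). Myh11 read 8483, 8034 and 8426 against 8643, 8845 and 8420.0 in aorta (log2 0.05, SE 0.05) and differed by -1.67 in brain. Tesc, a calcium-binding protein, read 201, 209.7 and 219 against 167, 193 and 345 in aorta (log2 0.09) and differed by -2.31 in brain. For neither Myh11 nor Tesc did the difference between the tissues pass 5% (limma adjusted p = 0.195 and 0.159). The median standard error of the 17 genes in aorta was 0.16.

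**Figure D5:**
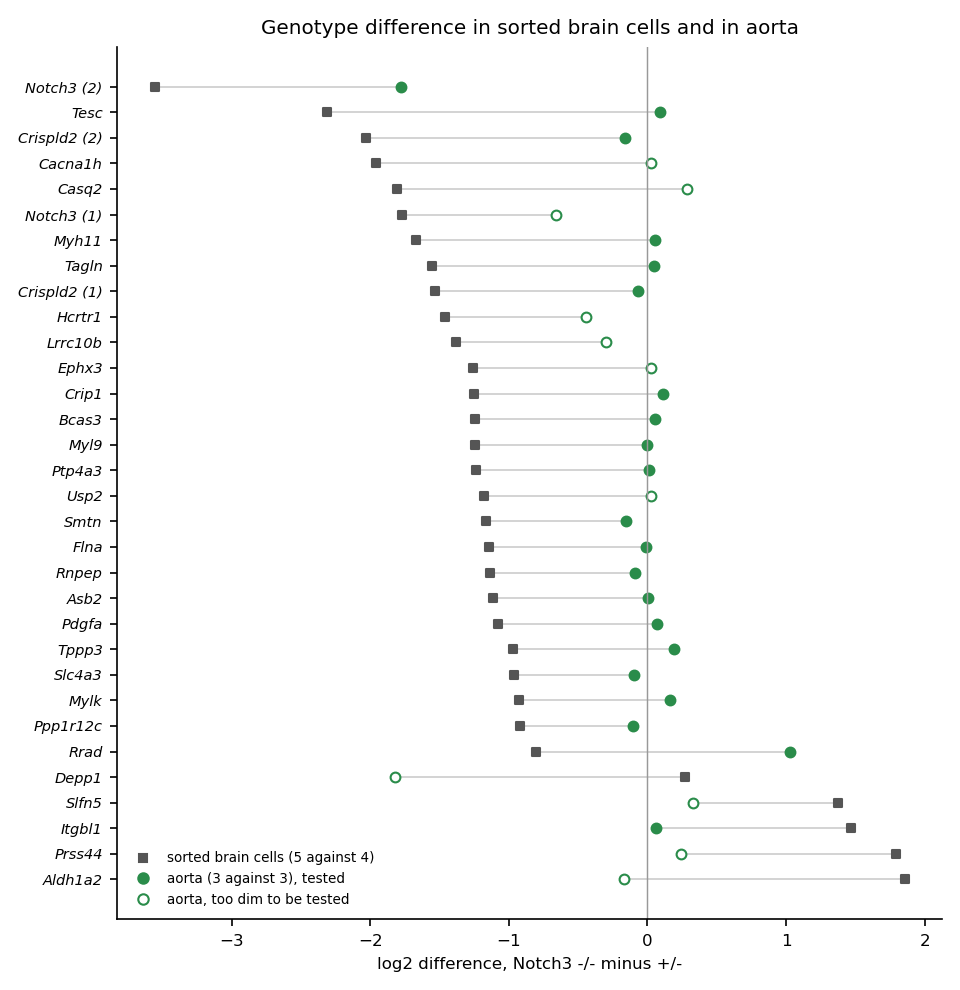
Log2 difference between genotypes in sorted brain cells (squares, 5 Notch3 -/- against 4 Notch3 +/- arrays) and in aorta (circles, 3 against 3) for named genes past 5% in brain or in the difference between tissues; open circles were too dim in aorta to be tested, and genes with 2 probe sets are numbered. Filled circles lie between -0.16 and 0.19, except Notch3 (-1.78) and Rrad (1.03).

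The difference between tissues was itself tested over all 15 arrays, and 4 of 22519 probe sets passed 5% (0.0178%). They were Notch3, lower by more in brain (aorta minus brain log2 1.78, limma adjusted p = 0.0117), Casq2 (2.09), Rrad (1.83) and Depp1 (-2.10). These 22519 were filtered on the mean of the 15 arrays, not on that of the aorta arrays alone. Casq2 and this Depp1 probe set were below the aorta filter and entered through their brain values. Rrad was higher in Notch3 -/- aorta and lower in Notch3 -/- brain cells (1927 ± 465, n = 4, and 1086 ± 168, n = 5; log2 -0.80). Depp1, a FoxO target, read 116, 43.9 and 62.9 against 7.54, 7.89 and 9.02 in aorta, below the filter there (log2 -1.82), and differed by 0.27 in brain. Its other probe set differed by -0.98 in aorta with an unadjusted p of 0.00819 by limma. At that probe set the difference between tissues did not pass 5% (-0.99, limma adjusted p = 0.883). The dimmer Notch3 probe set did not pass in that test either (1.11, limma adjusted p = 0.568). Casq2, the calcium store protein, was near background in aorta (20.4 to 35.6), so its difference between tissues rests on the brain values. The calls depended on which aorta array was left out. The count of probe sets that passed was 0 without 6166, 1 without 5561 (Depp1) and 1 without 5558 (Notch3). It was 3 without 6167 (not Rrad), 5 without 5559 and 7 without 5556.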

How the data were processed

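Aorta RNA was extracted with Trizol and columns, treated with DNase and hybridised as biotinylated cRNA, per the labels' protocols. Each deposited intensity is on a linear scale; the authors brought every array to a target of 150, per the design text deposited with the series. The sources used here do not name the summarisation method, background correction, detection calls or genome build. From these intensities log2(value + 16) was computed, which understates folds of dim probe sets. Control probe sets (64) and those under the median mean of the 6 arrays (intensity 37.4) were left out, leaving 22519. The genotype test was limma's (version 3.58.1, R 4.3.3), two-sided, with variances moderated along the intensity trend and Benjamini-Hochberg adjustment at 5%. In data simulated for aorta (22519 probe sets) it recovered 20% of 1.5-fold, 66% of 2-fold, 76% of 4-fold and 70% of 8-fold changes. It made 120 calls there, of which 4 were false. The simulation planted changes in many probe sets, which eases the adjusted threshold, and drew noise separately for each. The real arrays gave 0 calls, so these shares are not the power of the real comparison. The difference between tissues used 1 fit over 15 arrays, with the filter on the mean of these 15. A probe set too dim in aorta could thus enter through its brain values. An exact permutation test of 3 against 3 cannot go below p = 0.1, so none is given. Gene names came from GEO's platform annotation, updated through RefSeq (34945 probe sets with 1 symbol, 932 with several and 9160 with none, which were not named).

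Named genes were Notch3, the 15 smallest p lower and the 15 higher at the brightest probe set, the 5 largest differences each way among genes whose genotypes did not overlap, genes past 5% when 1 array was left out, in brain or between tissues, and up to 5 members per list by p plus its brightest; outside it, and chosen after their values were seen, are the other glucocorticoid-induced genes, Adipoq, Ucp1, the Hes and Hey genes, Sqle, Cnn1 and second probe sets. Members, lists and this rule were chosen with earlier results of these data known. Alternatives were other pseudocounts (1, 64), filters, quantile normalization, no trend, array weights, the number series as a block, all 15 arrays and each array left out.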

Additional observations from a re-analysis of the deposited data

Results flagged for a closer look

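The genotype difference in aorta differed from that in sorted brain cells, by a test of the difference itself in limma (adjusted p at or under 5%), for 4 probe sets. Notch3 differed by 1.78 log2 units between the tissues (aorta -1.78, brain -3.56). Casq2 differed by 2.09 (aorta 0.29, brain -1.80) and read under 36 on every aorta array, below the filter. Rrad differed by 1.83 (aorta 1.03, brain -0.80), with no overlap of genotypes in aorta. Depp1 differed by -2.10 (aorta -1.82, brain 0.27) at a probe set below the aorta filter. At its probe set above that filter the difference did not pass 5% (-0.99, limma adjusted p = 0.883), nor did it at the dimmer Notch3 probe set (1.11, limma adjusted p = 0.568). Without array 6166 none of the 4 passed 5%, without 5561 only Depp1 did, without 5558 only Notch3, and without 6167 all but Rrad. Brain cells were sorted and their RNA extracted in another way, and its part in these differences was not tested.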

How the results depend on the processing

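With all 6 aorta arrays, 0 probe sets passed 5% under each planned setting except all 15 arrays in the fit, where 1 did (Notch3, log2 -1.78, adjusted p = 0.000758 by limma). Leaving out 1 array gave 0 to 7 probe sets (7 without 5556, 1 without 5559, 7 without 6167, 0 without each of the others). Notch3 ranged from -1.99 to -1.61 with 1 array left out, and over all its alternatives adjusted p ran from 0.000758 to 0.667. The count of differences between tissues, 4, was 0 to 7 with 1 array left out: 7 without 5556, 1 without 5561, 0 without 6166 and 1 without 5558. The median in aorta of the genes lower in brain kept within 1 SD of its value in each alternative. No result changed sign past the threshold. Of 923 values of other named genes in aorta 878 stayed on their side of the threshold with the same sign, 14 passed it, and 31 changed sign, each in a gene that was not past 5%. Of the list medians under these settings 640 moved by less than the spread and 19 by more. The lymphocyte list had no tested member at the upper-quartile filter. No paired analysis was possible because the genotypes share no replicate number; the number series fitted as a block called 0.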

Other observations

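Counts here stand against 2.54% lower and 1.82% higher of all named genes. Of 21 tested genes of mTOR inhibition and amino acid stress, 3 were lower and 0 higher at an unadjusted p under 0.05 (median -0.16): Ddit4, Deptor (345, 314 and 280 in Notch3 +/- against 237, 217 and 259 in Notch3 -/-; log2 -0.37, SE 0.12) and Atf5 (log2 -0.21). Among 21 tested genes of the unfolded protein response, the chaperones Calr and Hyou1 and the ubiquitin ligase Syvn1 were lower (log2 -0.19, -0.39 and -0.37). The lower heat shock genes were Bag3, Hspe1 and Cryab, with log2 differences of -0.30, -0.21 and -0.16. Among 16 tested inflammatory genes, the chemokine Cxcl14 was lower (64.6, 67.4 and 49 against 41.2, 28.2 and 29.1; log2 -0.65), as were Cxcl12 and Nfkbia, and Cxcl1 was higher (log2 0.38). Of 26 tested vasoactive receptors and cyclic GMP genes, Htr1b, a serotonin receptor, was lower (log2 -0.47) and Rgs4, which limits G protein signals, higher (log2 0.35), a share near that of all named genes.

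Of 33 tested genes within 30 places of Notch3 in RefSeq order, 2 had an unadjusted p under 0.05 (median 0.04). Of the 15 leading lower genes 2 lie on the chromosome of Notch3, and of the 15 leading higher genes 0, against 4.6% of named genes tested.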
